A study of Homo sapiens with 6 samples.

Results

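Ephrins and their Eph receptors were followed in A549, an established human lung adenocarcinoma cell line, by taking every bead probe whose platform annotation gives one of 10 family symbols, namely EFNB1, EFNB2, EFNA1, EFNA3, EFNA4, EFNA5, EPHA2, EPHB2, EPHB3 and EPHB4. The symbols were picked with the difference between treated and control cells already known, so that difference is described below for these genes and is not offered as a test of them. Of the 10 symbols, 9 had a listed probe, so these were 9 of the 18665 named genes of the array, with 11 of its 48803 probes. EPHB2 had no probe under its symbol and was not analysed here.

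The study set 3 arrays of control A549 cells against 3 arrays of A549 cells exposed to DAMTC at 160 µg/ml for 24 h, to find transcripts whose levels differ after this compound. DAMTC is the name the labels use, at 1 dose and 1 time in 1 cell line, and how the control cells were handled (vehicle, duration) was not stated. Separate cultures are not named for the triplicates, although they are described as biological, so every error and p-value covers array-to-array spread that may be technical. The array positions in the column headers put the controls next to each other and the DAMTC arrays next to each other on the same BeadChip, so position and treatment cannot be told apart.

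Eph receptors are the largest family of receptor tyrosine kinases, and their ligands, the ephrins, stay attached to the membrane of the neighbouring cell. Ephrin-A ligands hang on a lipid anchor, while ephrin-B ligands cross the membrane and carry a cytoplasmic tail. Binding sends a forward signal into the cell with the receptor and, for ephrin-B in particular, a reverse signal into the cell with the ligand. In epithelia the system sorts cells, sets boundaries and alters adhesion and migration, and in blood vessels ephrin-B2 marks arteries and EPHB4 marks veins.

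All values below are bead intensities or, after background correction and quantile normalization, levels on the log2 scale. A probe was called detected on an array where its detection p-value, its rank among the negative-control beads, was under 0.05, and it was tested where detected on at least 3 of the 6 arrays. The arrays held between 16329 and 17835 detected probes, each probe being read from 36 to 38 beads at the median, and 17009 probes were tested. Intensities of different probes depend on their sequence, so each probe was compared only with itself. Of the epithelial marker list (KRT8, KRT18, KRT19, EPCAM, CDH1, AKR1B10, AKR1C1 and ALDH1A1) 7 of 8 were detected on all 6 arrays and AKR1C1 on 0, and CDH1, the epithelial cadherin, fell (log2 difference -1.64, adjusted p = 0.0230). The keratins KRT8, KRT18 and KRT19 differed by 0.62, 0.53 and 0.85 and EPCAM by -0.63, none past the threshold. Of 4 lung lineage markers (NKX2-1, SFTPA1, SFTPB and SFTPC) 0 were detected on all arrays. Of 6 fibroblast and mural markers 0 were, and of 5 blood cell markers on the array only CD14 was, while PTPRC was detected on 0 arrays.

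Of the 11 member probes, 9 passed the detection filter. In the fit over all probes, 4 of these 9 were past an adjusted p of 0.05 on the higher side with DAMTC and 1 on the lower side, while 11.7% of all tested probes were higher and 11.6% lower, 23.4% together. The 4 were the probes of EFNB2, EFNB1 and EPHB3 and the brighter probe of EFNA4, and the 1 was the brighter probe of EFNA1. The groups did not overlap for the same 5 probes, with DAMTC above for 4 and below for 1, against 40.1% of all tested probes (20.0% above and 20.1% below). Because the symbols were chosen on this contrast, nothing is read from these shares. In bulk RNA, fewer cells that express a gene and less of its RNA per cell cannot be told apart.

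**Figure D1:**
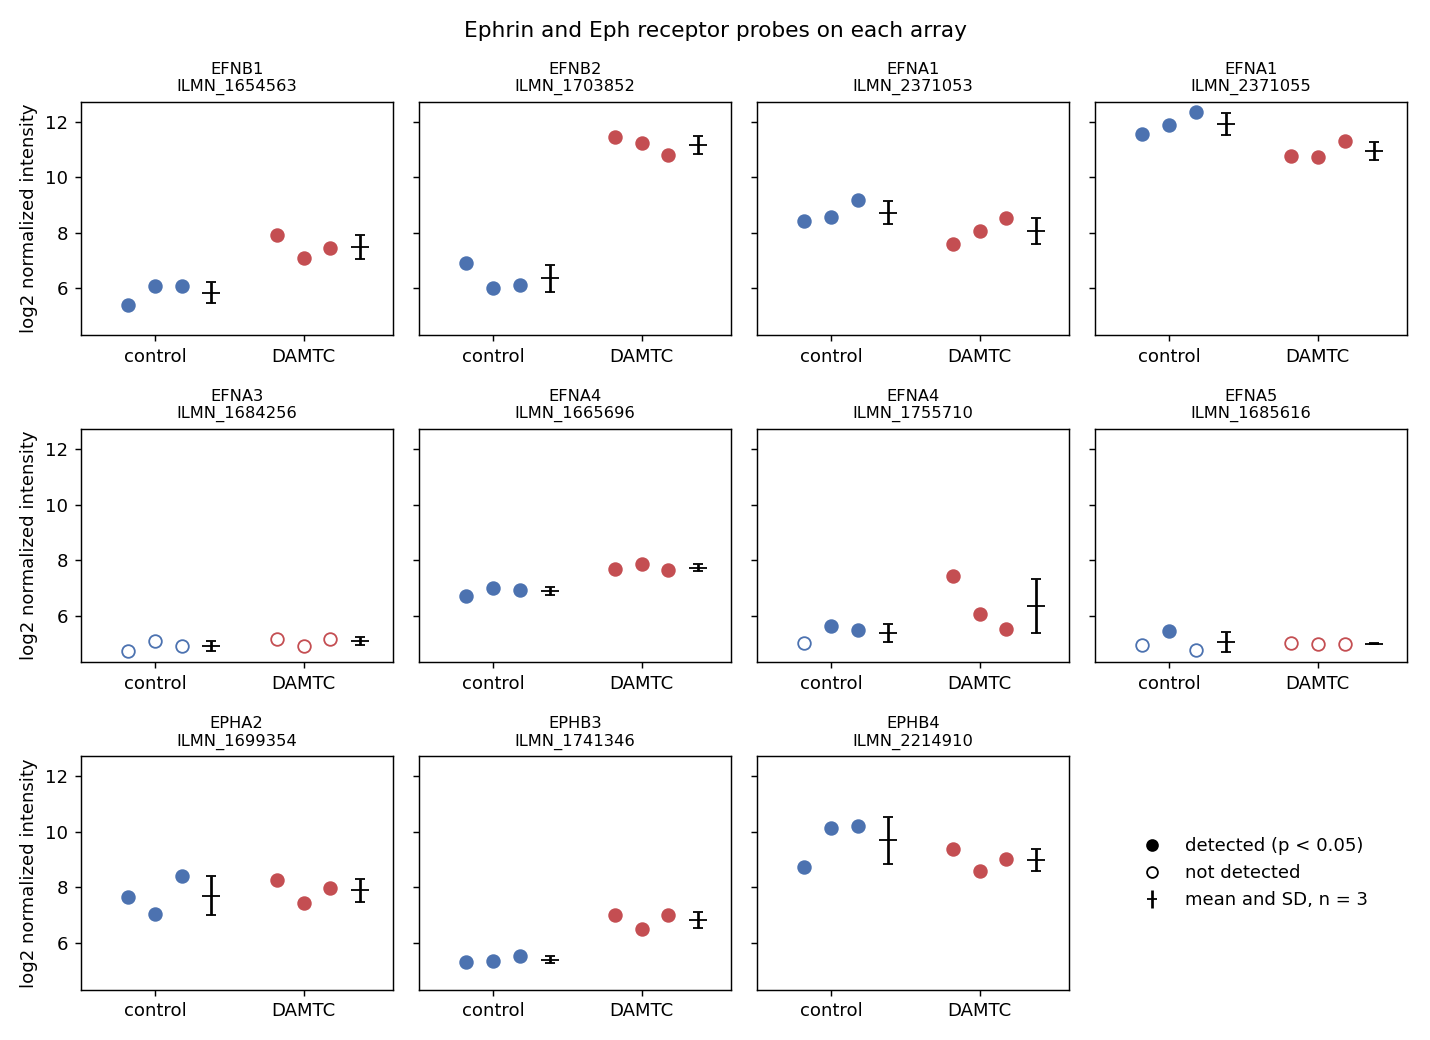
Log2 normalized intensity of each of the 11 ephrin and Eph receptor probes (vertical axis) on the 3 control and 3 DAMTC arrays (horizontal axis, replicates 1 to 3 from left to right), filled where detected and open where not, with the mean and SD beside them. The DAMTC points of EFNB2 lie between 10.82 and 11.45, all above the control points at 6.03 to 6.93, while EFNA3 is open throughout.

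EFNB2, which encodes the transmembrane ligand ephrin-B2, was the member with the largest difference. Its promoter is shown with that of EFNB1, which encodes ephrin-B1, and the motif matches discussed further on are in capitals. The sequences run from 250 bases before to 50 bases after the annotated start of each gene and come from RefSeq, build GRCh38.p14.
EFNB2 promoter, chr13:106535613-106535912, minus strand: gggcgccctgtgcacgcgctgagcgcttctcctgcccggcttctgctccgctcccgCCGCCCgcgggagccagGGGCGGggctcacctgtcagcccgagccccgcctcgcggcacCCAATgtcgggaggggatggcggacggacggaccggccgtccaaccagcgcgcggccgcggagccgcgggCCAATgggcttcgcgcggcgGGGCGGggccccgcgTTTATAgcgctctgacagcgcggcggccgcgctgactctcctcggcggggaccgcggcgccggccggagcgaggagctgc
EFNB1 promoter, chrX:68828771-68829070, plus strand: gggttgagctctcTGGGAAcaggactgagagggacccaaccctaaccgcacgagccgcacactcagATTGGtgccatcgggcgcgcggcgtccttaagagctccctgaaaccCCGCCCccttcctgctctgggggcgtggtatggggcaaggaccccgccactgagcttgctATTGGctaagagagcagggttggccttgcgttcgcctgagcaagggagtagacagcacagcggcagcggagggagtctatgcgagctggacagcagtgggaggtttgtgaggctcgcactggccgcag

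On the 3 control arrays the EFNB2 probe gave intensities of 246, 196 and 207, each detected. On the 3 DAMTC arrays it gave 2527, 2531 and 1811. The probe was therefore close above background in control cells and far above it in treated cells, with no overlap. The standard error over its beads was 6.13 to 11.8 on the control arrays and 62.5 to 131 on the DAMTC arrays, so the error within an array was far smaller than the step between the groups. After normalization the control arrays were at 6.93, 6.03 and 6.12 and the DAMTC arrays at 11.45, 11.24 and 10.82 on the log2 scale. The log2 difference was 4.81 ± 0.31 (SE, n = 3 per group). Leaving out any 1 array gave 4.67 to 5.10, and without background correction it was 3.57.

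EFNB1, the ephrin-B1 gene, separated the groups as well. Its probe gave 163, 198 and 205 on the control arrays and 307, 251 and 281 on the DAMTC arrays, and it was detected on all 6. The normalized levels were 5.40, 6.07 and 6.08 in controls and 7.94, 7.09 and 7.46 with DAMTC. The log2 difference was 1.65 ± 0.31, and 1.42 to 1.86 with any 1 array left out. In the authors' own background-subtracted values the controls read 27.3, 55.4 and 55.7 and the treated arrays 213, 112 and 143. Ephrin-B1 transcripts thus stood just above background in control cells, and the size of the difference moved with the background removal, to 0.77 without it.

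Among the lipid-anchored ligands, EFNA1 went the other way. EFNA1 encodes ephrin-A1, the main partner of EPHA2 and a gene known to respond to tumour necrosis factor in endothelium. Its promoter is shown for comparison with those of the ephrin-B genes, in the same orientation and with motif matches in capitals.
EFNA1 promoter, chr1:155127626-155127925, plus strand: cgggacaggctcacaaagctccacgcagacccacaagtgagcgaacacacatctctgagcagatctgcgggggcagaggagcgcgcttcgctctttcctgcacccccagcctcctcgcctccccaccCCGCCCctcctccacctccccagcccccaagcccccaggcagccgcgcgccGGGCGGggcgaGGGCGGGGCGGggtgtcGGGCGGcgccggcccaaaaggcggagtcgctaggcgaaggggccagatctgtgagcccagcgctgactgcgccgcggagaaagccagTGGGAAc

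The brighter EFNA1 probe, ILMN_2371055, gave 3065, 3991 and 6210 on the control arrays and 1557, 1833 and 2510 on the DAMTC arrays. All treated arrays were below all control arrays, and the normalized log2 levels averaged 11.92 ± 0.39 against 10.95 ± 0.33 (SD, n = 3), a difference of -0.98 ± 0.29 (SE). The dimmer EFNA1 probe, ILMN_2371053, gave 483, 541 and 834 in controls and 265, 377 and 454 with DAMTC. Its groups did not overlap in raw intensity but did after normalization (difference -0.66 ± 0.33), and it was not past the threshold. The brighter probe stayed below 0 in every setting tried but was past the threshold in only 8 of 16. With 1 array left out it was past it only without control replicate 1 (-1.18), and read -1.01 and -0.77 without control replicate 2 and 3 and -0.88, -0.87 and -1.16 without DAMTC replicate 1, 2 and 3.

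EFNA4 encodes ephrin-A4. Its brighter probe, ILMN_1665696, gave 230, 268 and 273 on the control arrays and 274, 338 and 304 on the DAMTC arrays. In raw intensity the lowest treated array was hardly above the highest control, and after background correction and quantile normalization the groups stood apart at 6.71 to 6.98 and 7.65 to 7.86. The difference was 0.85 ± 0.23, and it was past the threshold in only 7 of 16 alternative settings. With arrays scaled to the same median it was 0.51 and with the authors' processed values 0.68, both short of the threshold, and it was also short of it without control replicate 3 (0.88) and without DAMTC replicate 1, 2 or 3 (0.88, 0.79 and 0.90). The dimmer EFNA4 probe, ILMN_1755710, was detected on 2 of 3 control arrays and gave 149, 176 and 172 there, against 248, 187 and 167 with DAMTC. Only DAMTC replicate 1 was clearly above the controls, and without it the difference of 0.97 ± 0.45 became 0.44.

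EFNA3 and EFNA5, which encode ephrin-A3 and ephrin-A5, were at background. The EFNA3 probe gave 134, 153 and 145 in controls and 132, 144 and 155 with DAMTC, with detection on 0 of 6 arrays. The EFNA5 probe gave 144, 168 and 137 in controls and 127, 147 and 147 with DAMTC, and control replicate 2 was the only array that detected it. Neither was tested, and a low level of either transcript was not measurable with these probes. In the RefSeq gene table EFNA4, EFNA3 and EFNA1 follow each other on chromosome 1. Of these, the brighter EFNA4 probe read higher, EFNA3 was undetected and the brighter EFNA1 probe read lower. The EFNA4 and EFNA1 calls held in only 7 and 8 of 16 alternative settings. Of the 10 entries next to this run, 5 on each side, 6 had a listed probe and 4 were tested (ADAM15, SLC50A1, DPM3 and KRTCAP2). By the probe of highest mean level for each gene, which stands for a gene in all the lists below, 0 passed the adjusted threshold in limma and 0 had an unadjusted p under 0.05. Their median log2 difference was -0.12, against -0.04 over all genes tested, and the smallest p among these probes was that of KRTCAP2 (-0.43 ± 0.49, adjusted p = 0.580). A dimmer ADAM15 probe was detected on 3 of 3 control arrays and 0 of 3 DAMTC arrays, with an adjusted p of 0.0526.

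Among the receptors, EPHB3, which binds ephrin-B ligands and is known from the intestine for keeping crypt cells in place, was higher with DAMTC. Its promoter follows, on the same terms as those above.
EPHB3 promoter, chr3:184561535-184561834, plus strand: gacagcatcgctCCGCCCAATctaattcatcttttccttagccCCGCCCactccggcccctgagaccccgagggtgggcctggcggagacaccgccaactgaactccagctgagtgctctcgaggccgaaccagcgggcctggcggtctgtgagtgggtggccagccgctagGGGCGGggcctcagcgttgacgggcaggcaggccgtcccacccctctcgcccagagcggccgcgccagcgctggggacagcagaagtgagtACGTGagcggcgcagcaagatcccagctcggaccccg

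The EPHB3 probe gave 159, 164 and 175 on the control arrays, where detection p-values were 0.0461, 0.0343 and 0.0224, and 209, 208 and 239 on the DAMTC arrays. Every treated array was above every control, but the controls were at the edge of detection. The normalized levels were 5.30, 5.35 and 5.53 against 6.98, 6.48 and 6.98, a difference of 1.42 ± 0.25. Without background correction the difference was 0.55, and with the authors' processed values 1.80. The differences of EFNB2, EFNB1 and EPHB3 were above 0 and past the threshold in all 16 alternatives.

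EPHB4, the receptor paired with ephrin-B2 in vessels, showed a pattern that depends on 1 control array. Its probe gave 571, 1317 and 1564 on control replicates 1, 2 and 3 and 652, 488 and 585 on the DAMTC arrays. Control replicate 1 was thus inside the range of the treated arrays, while control replicates 2 and 3 were far above every treated array. With all arrays the log2 difference was -0.70 ± 0.42 (95% interval -1.64 to 0.25). Without control replicate 1 it was -1.19 and past the threshold, and without control replicate 2 or 3 it was -0.48 and -0.43.

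EPHA2, the receptor of ephrin-A1 and abundant in many carcinomas, was detected on all 6 arrays. It gave 335, 272 and 546 in controls and 357, 286 and 345 with DAMTC. The control arrays spread more widely than the treated ones and enclosed them, and the difference was 0.19 ± 0.38 (95% interval -0.67 to 1.05). An interval of this width leaves room for a change in either direction, and the sign turned with median scaling (-0.18), with the authors' processed values (-0.07), with array weights (-0.27) and without control replicate 2 (-0.15).

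**Figure D2:**
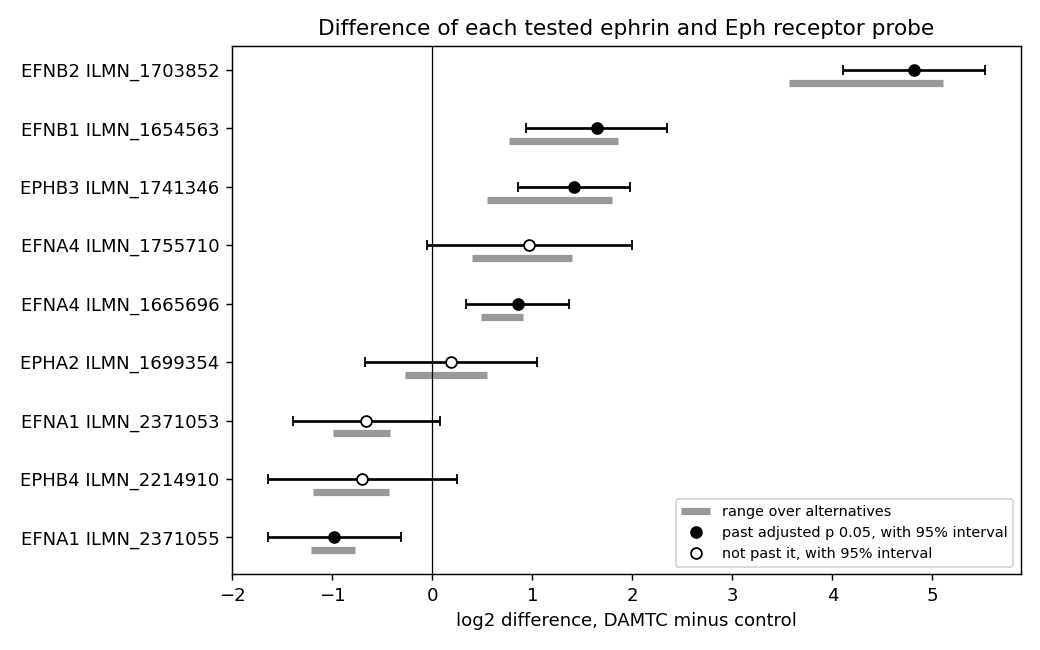
Log2 difference of DAMTC minus control (horizontal axis) for the 9 tested ephrin and Eph receptor probes (vertical axis), with 95% intervals from the fit over all probes, and below each the range over the alternatives as a grey bar. EFNB2 stands at 4.81 and the brighter EFNA1 probe at -0.98, and the bar of EPHA2 crosses 0.

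The promoter windows of the 10 members held 58.3% to 83.0% G and C. Over 35116 windows of the same length the median was 58.7% and the quartiles 47.0% and 68.0%. EFNA4, at 58.3%, lay just below that median, and EFNB1 (63.7%) and EPHA2 (64.3%) lay between the quartiles. Both strands were searched for 6 short motifs. The GC box GGGCGG, bound by SP1, was in 10 of 10 members and in 45.0% of all windows. CCAAT, bound by NF-Y, was in 5 of 10 members (EFNB1, EFNB2, EFNA4, EPHB3 and EPHB4) and in 34.6% of all windows. Among the 10 members, TATAAA was found only in EFNB2, as TTTATA at position -30 from the start, and in 11.5% of all windows. TGGGAA, the core bound by RBPJ of the Notch pathway, was in EFNA1, EFNA3 and EFNB1 and in 24.0% of all windows, and it was not among the letters of the EFNB2 window. ACGTG, a form of the core of hypoxia response elements, was in EPHB3 alone of the members and in 21.4% of all windows. The form GCGTG was not part of the search. Read on either strand, the EFNB1, EFNB2 and EFNA1 windows shown above hold it, as do those of EFNA3, EFNA5, EPHA2, EPHB2 and EPHB4. EPHB3 is therefore not the only member with such a core. TGACGTCA, the cyclic AMP response element, was in EPHA2 alone of the members and in 1.85% of all windows. In the EPHB3 window a GC box and the CCAAT match share letters, and in the EFNA1 window a pair of GC boxes share 1. A match is a run of letters and not a shown site.

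The probes whose pattern was most like that of EFNB2 were taken by the smallest root mean square difference from it over the 6 arrays, with each probe centred on its control mean. They were probes of KBTBD8, an adaptor of a ubiquitin ligase (0.32 log2 units), of RORA, a nuclear receptor (0.39 and 0.41 for its 2 probes), of KHDRBS3, an RNA-binding protein (0.41), and of CDKN2D, an inhibitor of cyclin D kinases (0.42). Their log2 differences lay between 4.51 and 5.0. The RORA probes were detected on 0 of 3 and 1 of 3 control arrays, with control means of 4.72 and 5.01. Those means were below the lowest detected signal of the control arrays (5.25 to 5.28), so the RORA differences are not exact. The first RORA probe met the detection filter through the DAMTC arrays alone. Likeness over 6 arrays in 2 groups is set mostly by the size of the step between the groups.

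**Figure D3:**
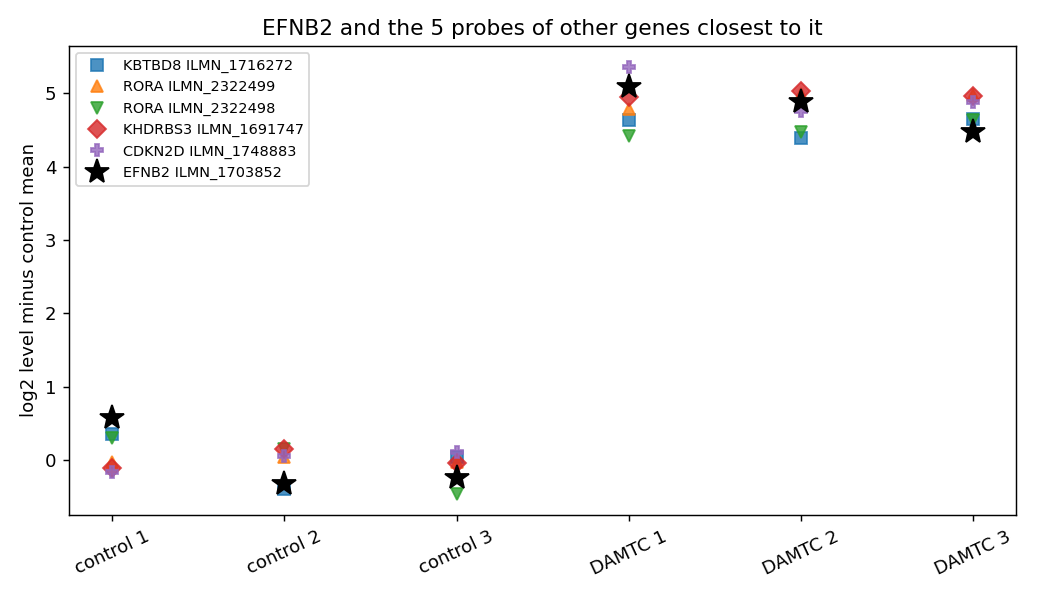
Log2 level minus the control mean (vertical axis) of the EFNB2 probe (stars) and the 5 closest probes of other genes on each of the 6 arrays (horizontal axis). The control points lie around 0, and the DAMTC points lie between 4.40 and 5.36.

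The 12 ephrin and Eph receptor genes outside the chosen symbols had 19 probes, of which 11 were detected on 0 arrays, 3 on 1 or 2 and 5 on at least 3. Of the 5 genes tested, EPHA4 rose and 0 fell, where 12.3% of all genes tested rose and 12.9% fell, 25.2% together. EPHA4 encodes a receptor that binds ephrins of both classes. Its probe gave 155, 153 and 151 on the control arrays, not detected on any, and 163, 204 and 214 on the DAMTC arrays, detected on all 3. With the control group at no less than the lowest detected signal of each array, the mean of the treated group was at least 2.17-fold higher (adjusted p = 0.00553, limma). That bound holds on the background-corrected scale only, and without background correction the log2 difference was 0.46. EPHA4 met the detection filter through the DAMTC arrays alone, so its p-value in the main fit is not taken as support. With no detection filter its adjusted p was 0.00479 (limma). The probe could not be tested with a DAMTC array left out, since it was then detected on too few arrays. EFNB3, which encodes the remaining ephrin-B, was detected on 3 of 3 control arrays and on 0 of 3 DAMTC arrays. On the corrected scale its control mean was at least 1.38-fold higher, short of the threshold (adjusted p = 0.0869, limma). EFNA2, EPHA3 and EPHB1 differed by -0.11 ± 0.26, -0.10 ± 0.28 and -0.11 ± 0.27. The median of the 5 was -0.11, against -0.04 over all genes.

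Of 43 genes that act below Eph receptors (such as adaptors, exchange factors, kinases and phosphatases), 33 were tested, 3 rose, 2 fell and 28 did not pass by that probe. Dimmer probes of FYN, a kinase of the SRC family, and CDC42, a regulator of actin, both among the 28, were past the threshold at 2.22 (adjusted p = 0.00125) and 1.53 (adjusted p = 0.00393), while their brighter probes read 0.66 and 0.03 and another FYN probe -0.05. The shares that rose and fell, 9.09% and 6.06%, were not above those of all genes, and the median was -0.03. ABL2, a cytoplasmic tyrosine kinase that controls actin, had the largest rise. It gave 188, 152 and 188 on control arrays, detected on 2 of 3, and 732, 870 and 955 with DAMTC, a difference of 4.03 ± 0.29 (adjusted p = 1.28e-04, limma). The groups were far apart. A second ABL2 probe, detected on 0 of 3 control and 3 of 3 DAMTC arrays, was also higher (adjusted p = 0.00453, limma). That probe met the detection filter through the DAMTC arrays alone, so its p-value is not taken as support. VAV3, an exchange factor that is recruited by Eph receptors, had the largest fall. It gave 373, 406 and 1013 in controls and 131, 165 and 146 with DAMTC, where 1 of 3 arrays detected it, a difference of -3.29 ± 0.43 (adjusted p = 0.00115). The DAMTC mean of 5.18 was below the lowest detected signal of those arrays (5.31 to 5.37), so the size of the fall is not exact. A second VAV3 probe read -1.19 (adjusted p = 0.0513), and VAV3 stayed past the threshold without any 1 array, at -3.56 to -2.71.

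SRC, the tyrosine kinase that relays both forward and reverse signals, fell from 1339, 4810 and 3375 in controls to 747, 524 and 765 with DAMTC, a difference of -2.01 ± 0.48 (adjusted p = 0.0167, limma). Its call was lost without control replicate 3 (-1.94, adjusted p = 0.0536) and without DAMTC replicate 2 (-1.73, adjusted p = 0.0685), and its other probes were too dim to test. GRB2, an adaptor toward RAS, rose by 1.18 ± 0.30 (adjusted p = 0.0213), with 1.16 (adjusted p = 0.00608) on a second probe. ACP1, a phosphatase that acts on Eph receptors, rose by 0.90 ± 0.24 (adjusted p = 0.0262), while its second probe read 0.11 (adjusted p = 0.802). GRB2 and ACP1 were short of the threshold with median scaling (adjusted p = 0.0801 and 0.0839) and with the authors' processed values (adjusted p = 0.0524 and 0.0647). With arrays left out, the call of GRB2 was lost without control replicate 3 (1.15) and DAMTC replicate 1 (1.17) or 3 (1.06), and that of ACP1 without control replicate 2 (0.84) and DAMTC replicate 1 (0.90), 2 (0.93) or 3 (0.84).

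Of 29 genes for partners of the ephrin tail and for proteases that cut ephrins or Eph receptors, 17 were tested. In limma 0 passed in either direction by the probe of highest level, while 5 had an unadjusted p under 0.05, as did 4141 of all 10779 genes. The 5 were ADAM17, RHBDL2, PSEN2, APH1B and GIT1, and the median of the list was -0.40. GIT1, a scaffold of the ephrin-B tail, differed by 1.04 ± 0.40, and the proteases and secretase subunits RHBDL2, PSEN2 and APH1B by -0.77 ± 0.26, -1.02 ± 0.43 and -1.34 ± 0.49, with adjusted p from 0.0642 to 0.121 (limma). A dimmer APH1B probe, detected on all 6 arrays, was past the threshold at -2.69 (adjusted p = 5.06e-04), while those of RHBDL2 and PSEN2 read -0.31 and -0.29. The smallest p was that of ADAM17, a membrane protease that sheds surface proteins, at 778, 826 and 832 in controls and 347, 481 and 512 with DAMTC (-0.76 ± 0.24, adjusted p = 0.0527). The groups of ADAM17 did not overlap, and its further probes read -0.14 and -0.67. Of 16 alternatives, 6 put ADAM17 past the threshold. Their adjusted p ran from 0.0138 with median scaling, which moved the median of all probes from -0.01 to -0.21, to 0.0492 without control replicate 1. Leaving out control replicate 1 took the falls in this list from 0 to 5.

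The Notch pathway, which controls EFNB2 in arterial endothelium, was looked at as a neighbouring list of 24 receptors, ligands, modifiers and targets. Of 18 tested, 3 rose (16.7%), 1 fell (5.56%) and 14 did not pass, against 12.3% and 12.9% of all genes. The median was 0.25. DLL1, a Notch ligand, gave 144, 151 and 146 in controls, detected on 0 of 3, and 255, 293 and 226 with DAMTC. On the background-corrected scale that was at least 4.0-fold higher (adjusted p = 7.62e-04, limma). Without background correction the log2 difference of DLL1 was 0.96. HEY2, a transcriptional repressor and Notch target, gave 139, 165 and 152 in controls, detected on 1 of 3, and 383, 242 and 277 with DAMTC (2.52 ± 0.37, adjusted p = 0.00201). The HEY2 control mean of 5.08 was below the lowest detected signal of those arrays (5.25 to 5.28), so this size is not exact. DLL1 met the detection filter through the DAMTC arrays alone, so its p-value in the main fit is not taken as support. It is 1 of the 3 counted as risen, and with no detection filter its adjusted p was 0.0021 (limma). DLL1 and HEY2 both separated the groups completely, and DLL1, like EPHA4, could not be tested without a DAMTC array.

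Of the Notch receptors, NOTCH1 and NOTCH3 passed, in opposite directions. NOTCH1 rose from 283, 449 and 374 to 827, 456 and 644 (1.41 ± 0.37, adjusted p = 0.0255), and NOTCH3 fell from 233, 487 and 331 to 166, 191 and 202 (-1.24 ± 0.38, adjusted p = 0.0452). Of 16 alternatives, NOTCH1 was past the threshold in 8 and NOTCH3 in 7. Among other settings, the call of NOTCH1 was lost with median scaling (1.09, adjusted p = 0.0588, limma). It was also lost without control replicate 3 (1.40) and without DAMTC replicate 1 (1.10) or 3 (1.38). The call of NOTCH3 was lost, among other settings, without background correction (-0.65, adjusted p = 0.115, limma) and without each array but control replicate 1. It read -0.81 and -1.29 without control replicate 2 and 3 and -1.22, -1.20 and -1.33 without DAMTC replicate 1, 2 and 3. HES1, another Notch target and named here after its values were seen, differed by -2.32 ± 0.77 (adjusted p = 0.0603, limma). Its groups overlapped, with a control SD of 1.85, and 1 of 3 DAMTC arrays detected it. The HES1 DAMTC mean of 5.26 was below the lowest detected signal of those arrays (5.31 to 5.37), so this size is not exact.

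**Figure D4:**
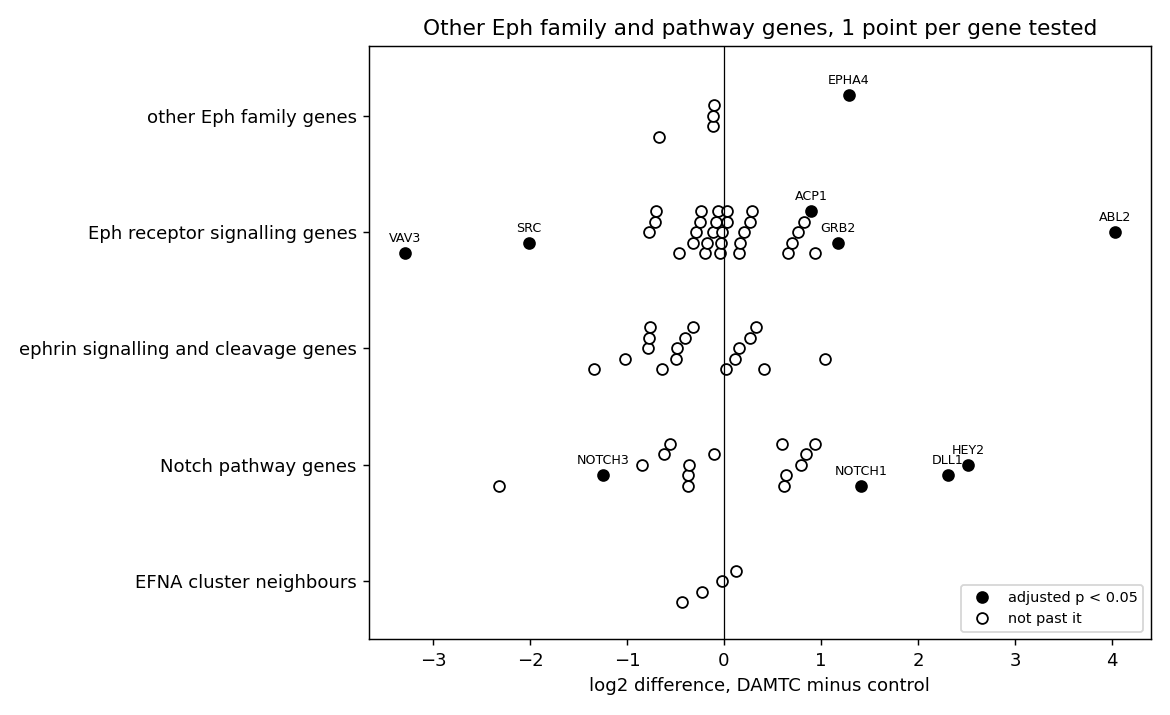
Log2 difference of DAMTC minus control (horizontal axis) for each tested gene of the 5 lists (rows), filled and named where the adjusted p is under 0.05. Of the 33 genes below Eph receptors 3 lie to the right and 2 to the left, and 0 of the 17 ephrin partners and proteases are filled.

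Because EFNB2 and EPHB4 are known from blood vessels, endothelial markers were read on the same arrays. Of 8, PECAM1 was detected on all 6 arrays (difference 0.63, adjusted p = 0.126, limma) and TIE1 on 5. TEK and KDR were detected on 1 array each, and CDH5, VWF, ROBO4 and CLDN5 on 0. The summed normalized intensity of the 8 was 246 to 291 on the control arrays and 274 to 313 on the DAMTC arrays, overlapping ranges. Most of these probes were at background, and the sum includes that background, so it says little about endothelial transcripts. The part of endothelial transcripts in the difference of EFNB2 was not tested.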

How the data were processed

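Total RNA of 3 control and 3 DAMTC samples of A549 was labelled and hybridised to Illumina Human-6 bead arrays, per the labels' protocols. The deposited bead table holds, per the file headers, a mean intensity, a detection p-value and 2 score columns (number of beads and their standard error) per probe and array. The software BeadStudio is named per the submitters' processing notes. The authors' series matrix intensity values were straight lines of the bead intensities (largest residual 0.0107, offsets of 119 to 141), so their scale and direction are known. The median of a column was 10.9, 9.34 and 8.59 on the controls and 8.99, 8.70 and 9.17 on the DAMTC arrays.

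Intensities were background-corrected with nec (limma 3.58.1, R 4.3.3, offset 16), then log2 transformed, then quantile normalized. A single gene symbol was listed for 27578 of 48803 probes, several for 13 and none for 21212. Names were checked by Entrez ID (27541 matched) against RefSeq's table for GRCh38.p14, which also gave gene order. Probes detected on at least 3 arrays were fitted with lmFit and eBayes, with Benjamini-Hochberg adjustment over all 17009. List genes were represented by their tested probe of highest mean level (10779 genes). The fit was tested on simulated data. Members and lists were chosen with earlier results of these data known. Named are all members, up to 4 list genes past the threshold per direction (otherwise the gene of smallest p), the genes of counts up to 5, and the 5 probes most like EFNB2. Alternatives were 10 settings (no background correction, median scaling, the authors' processed values, detection on all arrays, no detection filter, 1 probe per gene, trend and robust eBayes, array weights, the replicate block, and an adjusted p under 0.01) and 6 fits with 1 array left out. Precision is limited by the number of arrays.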

Additional observations from a re-analysis of the deposited data

How the results depend on the processing

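Over all probes, 1994 were higher and 1979 lower. The counts were 1368 and 3109 with median scaling (30.6% of the calls higher, against 50.2%), and with the authors' processed values 36.9% of the calls were higher (median of all probes -0.15). They were 3348 and 3500 with array weights, 1185 and 1139 with the replicate block, 1018 and 854 at an adjusted p under 0.01, and 1311 higher with 1 probe per gene, which tests fewer probes. With 1 array left out they ran from 1052 to 2622 higher and from 1080 to 2494 lower, largest without control replicate 1 and smallest without a DAMTC array, and the lower count was 1250 without control replicate 3.

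In the main fit 23.4% of all tested probes were called, the share beside which the counts below stand. That share was 40.3% with array weights, 13.7% with the replicate block and 11% at an adjusted p under 0.01. It was 6.65% with no detection filter, 26.3% with median scaling, 24% with the authors' processed values and 20.4% without background correction. With detection on all arrays it was 23%, with trend and robust eBayes 23.8%, and with 1 array left out 13.1% to 31.7%. Member probes called higher numbered 3 to 4 in every alternative. Those called lower numbered 3 with array weights, 0 with no detection filter, with the replicate block or at an adjusted p under 0.01, and 0 to 2 with 1 array left out. For the other Eph family genes, 1 fell with the authors' processed values or array weights, and 0 rose with detection required on all arrays, where EPHA4 is not tested. With 1 array left out 0 to 1 rose and 0 fell.

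For genes below Eph receptors, 1 rose with median scaling, the authors' processed values, the replicate block or an adjusted p under 0.01, and 7 rose and 4 fell with array weights. 1 fell with detection on all arrays, with no detection filter or at an adjusted p under 0.01, and with 1 array left out 1 to 5 rose and 1 to 3 fell. For ephrin partners and proteases, 2 fell without background correction, 4 with median scaling, 3 with the authors' processed values and 1 with no detection filter. With array weights 2 rose and 6 fell, and with 1 array left out 0 to 1 rose and 0 to 5 fell. For the Notch list, 0 fell without background correction, with no detection filter, with the replicate block or at an adjusted p under 0.01, and 2 fell with median scaling or trend and robust eBayes. In that list 1 rose with detection on all arrays, 7 rose and 5 fell with array weights, and with 1 array left out 1 to 4 rose and 0 to 2 fell. The neighbours of the EFNA run stayed at 0 in every setting. The cause of these shifts was not tested. The replicate numbers are not stated to pair the arrays. The correlations of same-numbered deviations were -0.43, -0.42 and -0.20, and those of differently numbered ones ran from -0.28 to 0.50. With 3 arrays per group, each centred on its group mean, these values depend on each other and cannot decide whether arrays were paired. Dim probes such as EPHB3 and EFNB1, near background in controls, limit how exactly a fold can be stated.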
